A study of Mus musculus with 14 samples.

Results

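The cells described here are a small glia-like population found late in gestation (E18.5) among hindbrain cells sorted for a reporter of the Atoh1 lineage. A cell was a member if it had at least 1000 detected genes, under 10% mitochondrial UMIs (unique molecular identifiers, which count captured RNA molecules), at least 10 UMIs of Fabp7, at least 3 of Slc1a3, at most 4 of Mapt, and at most 1 each of Neurod1 and Atoh1. In all, 369 of the 55054 E18.5 cells that passed the limits on genes and mitochondrial UMIs were members (0.670%). The members were therefore chosen on measured values of these 5 genes, and the levels of those genes are given as a description only. The 4 genes that were given as markers of the population are Fabp7, Slc1a3, Apoe and Slc4a4, and the last of these played no part in the choice of cells, nor did Apoe.

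Single-cell RNA sequencing was done on whole mouse hindbrains (C57BL/6J) after sorting of live TdTomato-positive cells, which the labels call neurons. Control embryos were Atoh1Cre/+; Rosalsl-tdTomato/+, and the mutants were Atoh1Cre/S193A; Rosalsl-tdTomato/+, called Atoh1S193A/- here, in which the remaining Atoh1 allele has an alanine in place of serine 193 and works only in part. The Cre sits in place of the Atoh1 coding region, so embryos of both genotypes carry a null Atoh1 allele and there was no group with a full set of Atoh1 alleles, and the reporter marks any cell in whose ancestry the Atoh1 locus was active, whatever that cell became. Each library came from 1 embryo, with 3 control and 3 Atoh1S193A/- libraries at E14.5 and at E18.5, each mutant matched to a littermate control with the same replicate number, and 2 further control libraries were made from pontine nuclei pooled from several pups at postnatal day 5 (P5). The 6 E18.5 libraries held 108239001 to 183911797 UMIs in all, with a median of 10974 to 16772 UMIs per kept cell. Any 2 of them shared 20 to 49 cell barcodes, at most 0.484% of the smaller library.

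Radial glia are the progenitors that line the ventricles of the embryonic brain. They give rise first to neurons and later to astrocytes, the cells that clear glutamate and potassium from around synapses, carry lipids and supply neurons with fuel. In the cerebellum some of them become Bergmann glia, whose fibres guide migrating granule cells. ATOH1 is a basic helix-loop-helix transcription factor of the rhombic lip, the dorsal edge of the hindbrain from which cerebellar granule cells and the mossy fibre neurons of the pons arise.

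The members had high levels of glial genes and low levels of neuronal ones. Levels are given as CPM, the UMIs of a gene per 1000000 UMIs summed over the cells of a library. Fabp7, the fatty acid carrier of radial glia (chr10:57784881-57788450, plus strand, GRCm38), stood at 13273, 13459 and 17294 CPM in the 3 control libraries and at 11458, 8638 and 17661 CPM in the 3 Atoh1S193A/- libraries. Slc1a3, the glial glutamate transporter GLAST (chr15:8634124-8710764, minus strand), had a mean of 1676 ± 180 CPM (SD, n = 6). The mean levels of Fabp7 and Slc1a3 in all other kept cells were 61.4 and 29.6 CPM. These gaps follow from the choice of cells.

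Apoe and Slc4a4 were high in every library. Neither was used to choose the cells, but both were given as markers of the population, so their levels are a description. Apoe, the main lipid carrier of the brain (chr7:19696109-19699188, minus strand), averaged 4318 ± 772 CPM (SD, n = 6) in the members and 46.8 CPM in the other cells. It had a UMI in 88.1% of members, and in 9.05% of neurons, taken as cells with at least 5 Mapt UMIs, where free RNA in the droplets also counts. Slc4a4, a sodium bicarbonate cotransporter (chr5:88886818-89239653, plus strand), averaged 619 ± 173 CPM against 7.79 CPM, and it had a UMI in 84.3% of members and 6.91% of neurons. The lowest of the 6 libraries for each gene lay far above the other cells. The depth of members, with a library median of 11024 to 16068 UMIs, was close to that of neurons, 11166 to 15606.

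Genes of radial glia and of maturing astrocytes were both found in the sums over members, which do not show whether single cells had both. Of 28 astrocyte genes, 28 had a higher mean in members than in the other cells, with a median ratio of 66.0. They included Sparcl1, a secreted matrix protein, at 2895 ± 349 CPM (SD, n = 6), Cst3, a protease inhibitor, at 1773 ± 411 CPM, Aldoc, a glycolytic enzyme, at 673 ± 91.0 CPM, and Aqp4, the water channel of astrocyte endfeet, at 550 ± 138 CPM. Of 22 radial glia and neural stem cell genes, 21 were higher. Dbi, an acyl-CoA binding protein, averaged 7802 ± 960 CPM, Vim, an intermediate filament of radial glia, 2567 ± 361 CPM, Ptprz1, a receptor phosphatase, 1580 ± 390 CPM, Sox2 500 ± 26.4 CPM and Sox9 440 ± 51.7 CPM. The transcription factors Sox2 and Sox9 varied least between embryos among these, and Ptprz1 varied more. Of 12 Bergmann glia genes, 11 were higher, among them Gdf10, a secreted protein of the TGF-beta family, at 277 ± 104 CPM, and Timp4, a metalloproteinase inhibitor, at 255 ± 56.7 CPM.

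Markers of other cell types differed in level. The summed level of 17 pan-neuronal genes ran from 652 to 831 CPM in the libraries of members and from 7824 to 10622 CPM in the other cells, and 0 of the 17 were higher in members. The 17 include Mapt, which the choice of cells held low, so the sum and the count follow in part from that choice. Stmn2, a tubulin-binding protein of neurons, stood at 124 ± 57.4 CPM against 2604 CPM. The granule lineage genes Zic1 and Pax6 were lower than in the other cells but well above 0, at 463 ± 92.1 and 214 ± 45.9 CPM against 1211 and 600 CPM. Of 13 oligodendrocyte lineage genes, Olig1 reached 193 ± 102 CPM and Olig2 51.9 ± 32.6 CPM, while Sox10 and Pdgfra, which mark committed precursors, were at 0.964 and 4.15 CPM and Neu4 was at 0. The microglial genes C1qa, C1qc, Csf1r, Tyrobp, Aif1 and Trem2 were at 0, and the 14 microglia and blood genes summed to at most 15.6 CPM. The 14 vascular and fibroblast genes summed to 63.5 to 286 CPM, against 18.7 to 53.8 CPM in the other cells, and the 8 ependymal genes to 84.8 to 294 CPM against 13.3 to 25.2 CPM, so both sums were higher in members. Only 6 of the 14 vascular and fibroblast genes had a higher mean in members, with a median ratio of 0.546. Of the 8 ependymal genes, 7 had a higher mean in members.

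The choroid plexus gene Ttr, which encodes a thyroid hormone carrier, stood apart in a single embryo. Ttr was at 1791 CPM in Atoh1S193A/- replicate 1 and at 3.34 to 11.6 CPM in the other 5 libraries. The 13 choroid plexus and roof plate genes summed to 2236 CPM in that library and to 81.4 to 271 CPM in the rest. Ttr was also present in the other kept cells, at 0.489 to 243 CPM, so its share from free RNA was not tested. Among the members, 75 of 369 fell in the 7.5% of cells with the highest Scrublet doublet score in their library. Without these cells the difference in share between genotypes, described below, was 0.103 percentage points in place of 0.117, and 0 genes passed between genotypes, as with them.

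**Figure D1:**
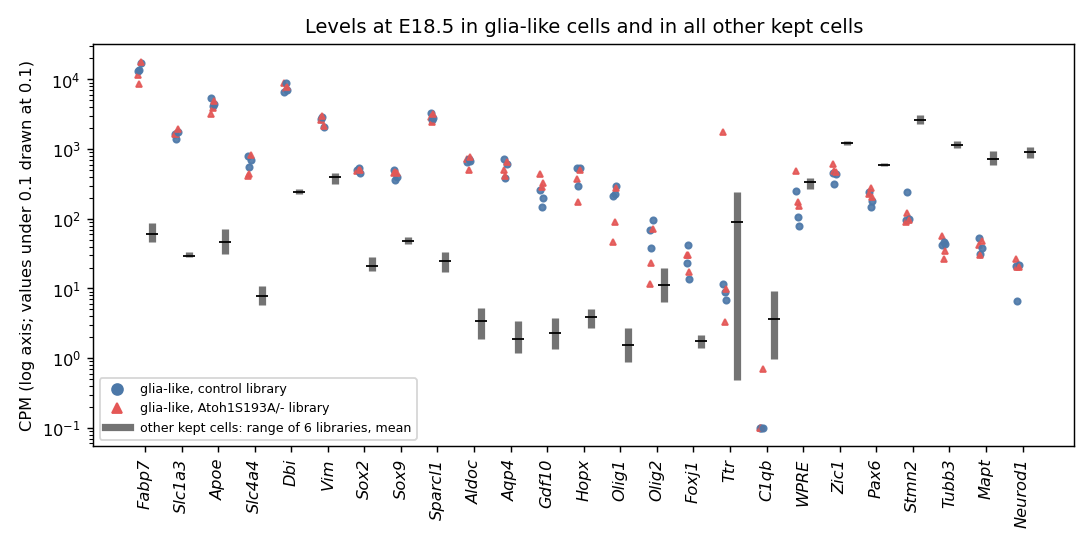
CPM of 25 genes (log axis) in the glia-like cells of each E18.5 control library (blue circles) and Atoh1S193A/- library (red triangles), with the range and mean of the 6 libraries for all other kept cells (grey bars). The glial genes from Fabp7 to Hopx lie above the grey bars in every library, the neuronal genes from Zic1 to Neurod1 lie below them, and Ttr is high in 1 mutant library only. Fabp7, Slc1a3, Mapt and Neurod1 were used to choose the cells.

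The Fabp7 limit cut through a thin region. Only 15 cells that met every other limit had 7 to 9 Fabp7 UMIs, 12 members had 10 to 12, and 357 members had 13 or more. Summed over cells, Apoe stood at 3656 CPM just outside the limit, 1519 CPM just inside it and 4482 CPM in the rest. Slc4a4 stood at 355, 400 and 675 CPM in the same order. Apoe and Slc4a4 were thus found on both sides of the limit, and few cells lay near it.

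The reporter transcript was less abundant in these cells than in the rest of the sort. WPRE, a sequence element of the tdTomato transcript that was added to the genome as a gene of its own, was at 248, 107 and 80.0 CPM in the control libraries and 483, 177 and 152 CPM in the Atoh1S193A/- libraries. The other kept cells had 271 to 387 CPM. WPRE had a UMI in 58.0% of members and in 93.1% of neurons. Its level was above the other cells' range in only 1 of the 6 libraries, Atoh1S193A/- replicate 1. Whether each member carried the reporter, and how much of its WPRE came from free RNA, was not tested.

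The share of glia-like cells at E18.5 was not separated by genotype. Members made up 0.471% (95% exact binomial interval 0.334 to 0.646), 0.413% (0.294 to 0.564) and 0.964% (0.773 to 1.19) of the kept cells of the control libraries. They made up 0.546% (0.419 to 0.699), 0.321% (0.211 to 0.466) and 1.33% (1.10 to 1.60) of those of the Atoh1S193A/- libraries. The third embryo of each genotype had the largest share, and the groups overlapped. The means were 0.616% ± 0.303 and 0.733% ± 0.531 (SD, n = 3), a difference of 0.117 percentage points (exact two-sided permutation p = 0.8, where 3 against 3 cannot go below 0.1). The difference turned to -0.182 percentage points without Atoh1S193A/- replicate 3. The intervals cover counting error only, and the share is relative to the sorted cells, so fewer glia and more neurons cannot be told apart.

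The same limits chose a larger share at E14.5. They were met by 2.58%, 2.00% and 1.82% of the kept cells in the E14.5 control libraries, and by 4.72%, 3.76% and 5.47% in the E14.5 Atoh1S193A/- libraries. The genotypes did not overlap at that stage, with means of 2.13% ± 0.394 and 4.65% ± 0.858 (SD, n = 3; exact permutation p = 0.1, the smallest possible). The limits cap Atoh1, the gene that the mutation alters, as well as Neurod1 and Mapt. A genotype that changes the level of these genes can change the share at either stage. What part this had in the difference was not tested. Control replicates 1 and 2 of that stage are the libraries whose file headers name Cell Ranger 3.1.0, so version and genotype overlap in part, and control replicate 3, with version 5.0.1 like the mutants, was at 1.82%. Over both genotypes the share was 3.39% ± 1.5 at E14.5 and 0.674% ± 0.392 at E18.5 (SD, n = 6 each), a difference of -2.72 percentage points with no overlap (exact permutation p = 0.00216, the smallest possible). With each library thinned to the median depth of the shallowest embryonic library, the difference was -1.74 percentage points, again with no overlap and the same p. Within either genotype alone, 3 libraries against 3 cannot go below 0.1, and that p was reached in each. At P5 the 2 control libraries had 6.18% and 5.33%, but they came from dissected pontine nuclei and were not compared. The log2 ratio of the mutant share to that of its littermate was 0.87, 0.91 and 1.59 at E14.5 and 0.21, -0.36 and 0.47 at E18.5. These 2 sets of ratios did not overlap (exact permutation p = 0.1, a test chosen after seeing the data).

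**Figure D2:**
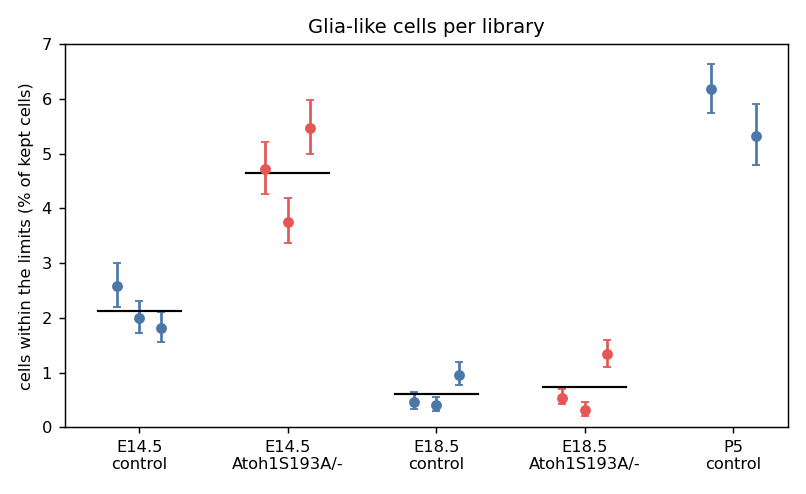
Percentage of kept cells that met the limits in each library, with 95% exact binomial intervals (vertical bars) and the group mean (black line). The 6 E18.5 libraries lie between 0.321% and 1.33%, below all E14.5 libraries, and the 2 genotypes separate at E14.5 only.

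The glia-like cells varied widely among themselves. Leiden clustering of the 369 cells gave 8 clusters, which are described by their leading genes, without a test. Cluster 1 (75 cells) was astrocyte-like. It was led by Slc6a11, the GABA transporter GAT-3, at 1265 CPM against 122.7 CPM in the other members, by the claudin Cldn10, and by Slc7a10, a neutral amino acid transporter, and it had Apoe at 16572 CPM and Slc4a4 at 1934 CPM. Its median of 7696 UMIs per cell was the lowest of the clusters. Cluster 4 (45 cells) shared high Apoe, at 7270 CPM, and had the highest Aqp4, at 1704 CPM, and Gfap, the astrocyte filament protein, at 215 CPM, with the metallothioneins Mt1 and Mt2 and the proteoglycan Ncan among its leading genes. Gdf10 was nearly absent from both, at 1.58 CPM in cluster 1 and 4.64 CPM in cluster 4.

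Cluster 2 (65 cells) had little Apoe, at 853 CPM, and was led by A830029E22Rik, the growth factor gene Fgf15, the receptor Kit and Cnpy1, with Gdf10 at 516 CPM. Clusters 3 and 6 held dividing cells. Cluster 3 (50 cells) was led by the replication genes Hist1h2ap, Pclaf and Rrm2, and 33 of its cells were in the top 7.5% of doublet scores. Cluster 6 (42 cells) was led by the mitotic genes Ube2c and Prc1, with Mki67 at 996 CPM, and 18 of its cells were in that top part too. Olig1 differed by cluster. It stood at 470, 491, 323 and 260 CPM in clusters 1, 3, 4 and 6, at 53.0 CPM in cluster 7, and at 9.78, 11.3 and 5.40 CPM in clusters 2, 5 and 8.

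Clusters 5 and 7 had dorsal midline genes and the highest reporter levels. Wls, which is needed to secrete Wnt proteins, was at 606 CPM in cluster 5 (45 cells) and 1003 CPM in cluster 7 (32 cells), and Msx1, a BMP-induced homeobox gene, was at 294 and 374 CPM, against 1.09 to 20.4 CPM in clusters 1 to 4 and 6. Cluster 8 also had Wls, at 685 CPM, with Msx1 at 59.4 CPM. WPRE was at 521 CPM in cluster 5 and 671 CPM in cluster 7, and at 52.6 to 148 CPM in the other 6 clusters. Cluster 5 was led by Rspo1, a Wnt agonist, Eln, which encodes elastin, and Cdon, with the homeobox gene Otx2 at 137 CPM. It also held the Ttr UMIs, at 2189 CPM, and the highest Fos, an immediate early gene, at 2451 CPM. Cluster 7 was led by the collagen gene Col14a1, at 880 CPM against 7.22 CPM in the other members, Hoxb8 at 324 CPM, and Sostdc1, a secreted inhibitor of BMP and Wnt signals, at 256 CPM, and it had the highest Gdf10, at 865 CPM. Hoxa5 was at 291 CPM there, and Hox genes of these groups are used posterior to the cerebellum. Cluster 8 (15 cells) was led by Dcn, Sulf1 and Vtn, which had a UMI in 26.7%, 93.3% and 66.7% of its cells, so Dcn rested on few of them. The cluster had Foxj1, the ciliogenesis factor of ependymal cells, at 162 CPM.

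**Figure D3:**
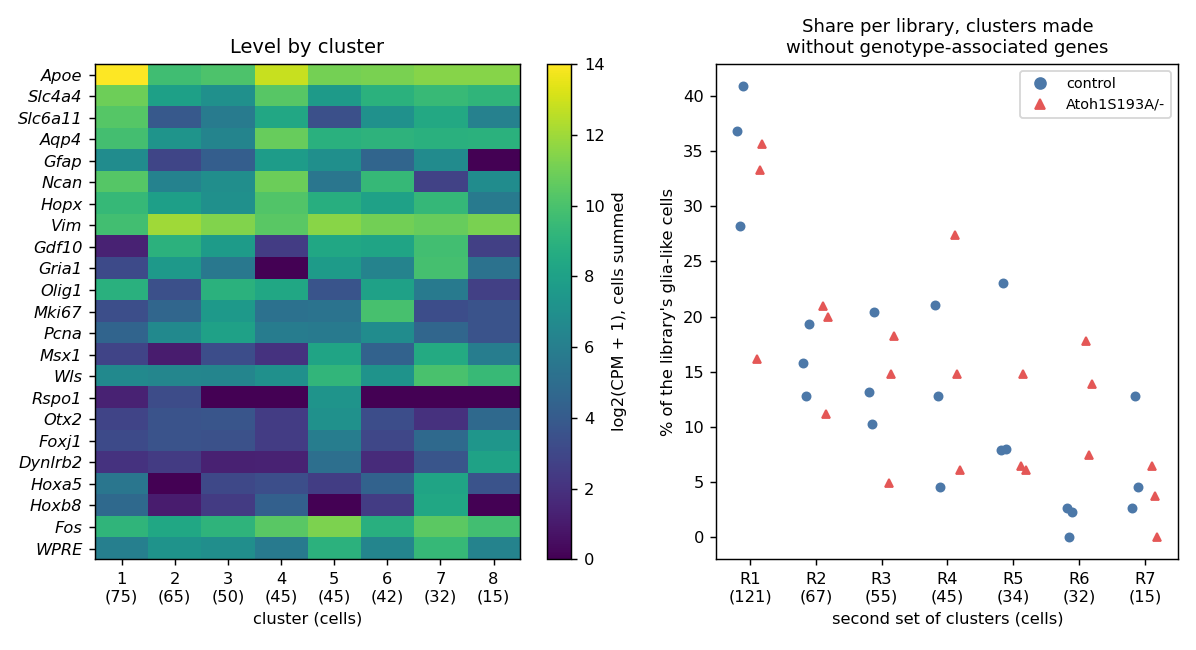
Left, level of 23 genes, as log2(CPM + 1) over the summed cells of each of the 8 clusters of E18.5 glia-like cells (number of cells in brackets). Right, share of each library's glia-like cells in a second set of clusters, R1 onward, made without the genes associated with genotype (circles control, triangles Atoh1S193A/-). In the left panel Msx1 and WPRE are high in clusters 5 and 7, Wls in clusters 5, 7 and 8, and Hoxb8 is high in cluster 7. In the right panel the 32 cells of the Hoxb8 cluster form cluster R6, which holds 0% to 2.63% of a control library's cells and 7.41% to 17.7% of a mutant library's.

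Between E14.5 and E18.5, cells chosen by the same limits differed in many genes. Tests used the UMIs summed over these cells in each of the 12 embryonic libraries, and levels in what follows are TMM-scaled CPM, in which library totals are adjusted for composition. Of 10520 genes tested with edgeR, 954 were higher at E18.5 (9.07%) and 418 were lower (3.97%), at an adjusted p under 0.05 and a log2 change over 1 in size, and the median log2 change over all genes was 0.00. A gene was tested if at least 10% of the cells of either stage had a UMI of it. Of the 954 higher genes, 305 met that limit at E18.5 only, and of the 418 lower genes, 245 met it at E14.5 only. A difference in such genes follows in part from the limit, so the counts and medians of the lists below are over the 9129 genes that met it at both stages, of which 649 were higher (7.11%) and 173 lower (1.9%). Genes that met it at 1 stage only are given by their values, as a description. The same 5 genes that chose the cells are left out of the counts. The stages were sorted from embryos of different litters and the cells were not matched for cell cycle or depth in this test.

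Genes for uptake and ion transport rose together, with 9 of 9 members higher and a median log2 change of 3.14, while 7 others met the detection limit at E18.5 only. Aqp4 was at 5.59, 10.7 and 16.2 CPM (lowest, median and highest of 6 libraries) at E14.5 and at 402, 568 and 712 CPM at E18.5, a log2 change of 5.75 ± 0.21 (SE; edgeR adjusted p = 1.1e-10). Slc4a4 went from 13.8, 29.9 and 53.8 CPM to 410, 653 and 831 CPM, a log2 change of 4.30 ± 0.27 (adjusted p = 1.6e-08). Neither gene had overlapping stages. Slc1a2, the glutamate transporter GLT-1, rose by 4.47 ± 0.27, the inward rectifier potassium channel gene Kcnj10 by 3.14 ± 0.26, and the gap junction gene Gja1 by 2.89 ± 0.15 on the log2 scale. The smallest rise was that of Glul, glutamine synthetase, at 1.52 ± 0.19. Slc6a11, a GABA transporter gene, met the limit at E18.5 only and differed by 4.44 ± 0.34.

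Of 21 astrocyte genes that met the limit at both stages 18 were higher and 1 lower, with a median of 2.35, and 5 others met it at E18.5 only. Apoe was at 13.5, 65.5 and 177 CPM at E14.5 and at 3117, 4482 and 5277 CPM at E18.5, a log2 change of 5.92 ± 0.43 (edgeR adjusted p = 7.0e-08), and at P5 the same limits gave 25968 and 30498 CPM on the unscaled measure. Among the 5, Gfap was close to 0 at E14.5, with a highest library of 0.829 CPM, and stood at 34.9 to 126 CPM at E18.5 (7.34 ± 0.47). Agt, angiotensinogen, differed by 7.11 ± 0.54 and S100b, a calcium-binding protein, by 3.87 ± 0.37. The serine protease gene Htra1 was the member that fell, by 1.96 ± 0.37, with overlapping stages. Of 5 Bergmann glia genes 4 were higher, with a median of 1.42. They included the AMPA receptor gene Gria4 (3.31 ± 0.19) and Gdf10 (1.26 ± 0.24), whose libraries overlapped and whose call some alternatives lost. The other 5 met the limit at E18.5 only, among them Timp4 (3.46 ± 0.30) and Gria1 (3.90 ± 0.39). Gdf10 was at 4.71 and 6.88 CPM at P5 on the unscaled measure. The P5 libraries came from dissected pontine nuclei, not whole hindbrain. Their levels of Gdf10 and Apoe were thus not compared with the embryonic ones.

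Radial glia genes were split. Of 22, 13 were higher and 0 lower, with a median of 1.18. Ptprz1 rose by 2.79 ± 0.19, Tnc, which encodes the matrix protein tenascin C, by 2.79 ± 0.30, and Mt3, a metallothionein, by 2.64 ± 0.28. Those that did not pass included Vim at 0.06 ± 0.15, Sox2 at 0.19 ± 0.07 and the Notch target Hes5 at -0.23 ± 0.18. Of 16 gliogenic transcription factors 4 were higher and 0 lower, with a median of 0.13. Sox8 rose by 2.02 ± 0.23, whereas Nfia, which promotes astrocyte fate, differed by 0.30 ± 0.10 and Nfib by -0.63 ± 0.10 and neither reached the limit of 1. The ETS factor gene Etv5 (3.22 ± 0.28) and Dbx2 (3.36 ± 0.41) met the detection limit at E18.5 only. Nfia and Nfib were also high in the other kept cells, at 544 and 1561 CPM on the unscaled measure.

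Of the signalling lists, that of FGF, BMP and Id response genes had the most changes, with 5 of 13 higher, 1 lower and a median of 0.93. The FGF receptor gene Fgfr3 rose by 1.98 ± 0.17, and the FGF-induced gene Spry2 by 1.80 ± 0.22, while Etv4 (3.22 ± 0.33) and Spry4 (3.09 ± 0.35) met the detection limit at E18.5 only. Id4, an inhibitor of helix-loop-helix factors, rose by 1.70 ± 0.24 while Id1 fell by 1.03 ± 0.20, a call that some alternatives lost. Of 14 Notch pathway genes 3 were higher and 0 lower (median 0.12), among them Lfng, which modifies the Notch receptor (1.19 ± 0.17). The calls of the other two, Notch3 and Hey2, were lost under some alternatives. Of 10 hedgehog pathway genes 1 was higher and 2 lower (median -0.40). The higher gene was the hedgehog target Ptch1 (1.59 ± 0.13), and the lower genes were Mycn (-1.58 ± 0.23) and Cdon (-2.24 ± 0.33). The targets Gli1 (3.00 ± 0.33) and Hhip (3.03 ± 0.37) met the detection limit at E18.5 only, and Gli1 was at 4.65, 16.4 and 24.8 CPM there.

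Lipid genes rose in part, with 9 of 17 higher, 0 lower and a median of 1.01. Scd2, a fatty acid desaturase, rose by 1.38 ± 0.08 and Abca1, a cholesterol exporter, by 1.71 ± 0.23. Lpl, lipoprotein lipase, met the detection limit at E14.5 only (-2.15 ± 0.25). Of 15 matrix and synaptogenic genes 6 were higher and 0 lower, with a median of 0.58. Sparcl1 went from 171, 339 and 508 CPM to 2444, 2913 and 3304 CPM (3.13 ± 0.19), and the proteoglycan genes Ncan and Bcan rose by 3.52 ± 0.28 and 4.05 ± 0.42. Of the oligodendrocyte lineage genes 2 met the limit at both stages, and of these Sox8 was higher. Lhfpl3 (4.28 ± 0.21), Olig1 (3.41 ± 0.46) and Olig2 (2.69 ± 0.44) met it at E18.5 only. The libraries of Olig1 overlapped, with 6.21, 14.9 and 60.4 CPM at E14.5 and 46.2, 224 and 308 CPM at E18.5. Of 2 ependymal genes 1 was higher.

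Of 5 choroid plexus and roof plate genes that met the limit at both stages 4 were lower and 0 higher, with a median of -2.19. Otx2 fell by 2.85 ± 0.25, Msx2 by 2.40 ± 0.33 and Msx1 by 2.19 ± 0.39 on the log2 scale. The other 4 tested genes met the limit at E14.5 only. Of these, Wnt1, a dorsal midline ligand, was at 71.9, 93.3 and 115 CPM at E14.5 and at 0, 6.67 and 19.1 CPM at E18.5 (log2 change -3.65 ± 0.28), and Lmx1a differed by -2.07 ± 0.44. Olig3, a transcription factor of dorsal hindbrain progenitors, also met it at E14.5 only, with 25.4, 55.4 and 148 CPM there and 0, 2.58 and 15.4 CPM at E18.5 (-4.10 ± 0.60). Of 3 other hindbrain progenitor genes 1 was higher and 0 lower (median -0.13). Of 8 Hox genes 4 were lower and 0 higher, namely Hoxa2, Hoxb2, Hoxb3 and Hoxb4, and the call of Hoxb4 was lost under some alternatives. Of 6 genes of rostral hindbrain position 0 passed (median -0.12).

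Of 40 S phase genes 6 were lower and 0 higher at E18.5, with a median log2 change of -0.71. The summed level of all 43 members of the list was 3230 to 4493 CPM (not TMM-scaled) in the E14.5 libraries and 1607 to 3085 CPM in the E18.5 libraries, with no overlap. Of 51 G2 and mitosis genes 0 passed, with a median of -0.28. Among pan-neuronal genes 3 of 10 were higher and 1 lower (median 0.41). Map2, a microtubule protein of dendrites, rose by 1.46 ± 0.16, and Tubb3, neuronal beta-tubulin, fell by 1.56 ± 0.15. Among granule lineage genes 1 of 4 was higher and 1 lower (median -0.45), and of the calls in that list those of Barhl1, Mfap4 and Zic2 were lost under some alternatives. Of 14 immediate early genes 7 were higher and 0 lower (median 1.09), with Fos at 386 ± 88.8 CPM at E14.5 and 1003 ± 185 CPM at E18.5 (SD, n = 6). These genes respond to tissue handling as well as to signals, and what part they have in the other differences was not tested. In the vascular list 1 gene met the limit at both stages, and it did not pass. Of the microglia and blood list only the haemoglobin gene Hbb-bs could be tested, and it met the limit at E14.5 only, at 198 ± 355 CPM at E14.5 and 2.96 ± 4.23 CPM at E18.5. WPRE differed by -0.41 ± 0.28 and did not pass.

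The genes with the largest fitted changes outside these lists mostly met the detection limit at 1 stage only, so their values are a description. A830029E22Rik had 3 UMIs over all E14.5 libraries and 305 at E18.5, a rate ratio of E18.5 to E14.5 of 691 (95% counting interval 234 to 3367). It met the limit at E18.5 only, so its direction follows in part from the limit. Pla2g3, a secreted phospholipase, differed by 6.77 ± 0.63, the matrix gene Svep1 by 6.12 ± 0.45, the cholesterol-esterifying enzyme gene Lcat by 5.16 ± 0.40 and Cldn10 by 5.08 ± 0.42, and each met the limit at E18.5 only. Lmo2, a LIM-domain cofactor, met it at E14.5 only, with 25.9, 101 and 173 CPM there and 0, 1.37 and 11.6 CPM at E18.5 (-5.39 ± 0.42). So did the retinoic acid carrier genes Crabp1 (-3.66 ± 0.49) and Crabp2, which had 514 UMIs at E14.5 and 2 at E18.5, a rate ratio of E14.5 to E18.5 of 37.8 (95% counting interval 10.4 to 313).

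**Figure D4:**
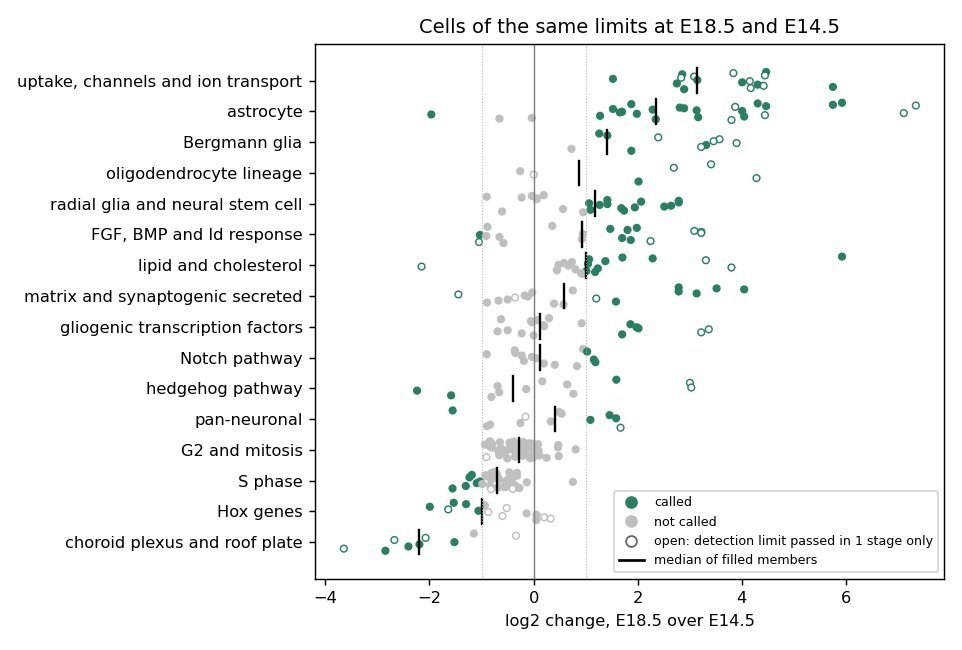
Log2 change between E14.5 and E18.5 of each tested gene of 16 lists in cells chosen by the same limits (dots), with called genes in green, genes that met the detection limit at 1 stage only as open dots, and the median of the filled dots as a black bar. The uptake list lies wholly to the right with a median of 3.14, the choroid plexus and roof plate list has a median of -2.19, and the G2 and mitosis list holds no called gene.

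Within the E18.5 glia-like cells, 0 of 9837 genes passed between genotypes with edgeR (0% called; 308 genes at an unadjusted p under 0.05). With littermates as a block, 36 genes passed (0.366% called), of which 24 were higher in Atoh1S193A/- and 12 lower (514 at an unadjusted p under 0.05). Of these 36, 9 of the higher genes met the 10% detection limit in mutant members only and 4 of the lower genes in control members only, so their direction follows in part from the limit. DESeq2 called 2 genes, Sostdc1 among them (113 at an unadjusted p under 0.05). Without the filter on low counts and without the block, edgeR called 51 of 16699 genes (34 higher and 17 lower). The count of calls thus depended on the treatment of the pairs and on the filter, and the replicate numbers do pair the samples. In simulated data of the same design, without the block, 49% of genes changed by 2-fold and 100% of those changed by 4-fold were recovered. The changed genes were drawn from the more abundant ones, and littermates were not simulated as pairs. These rates therefore do not hold for genes of low level.

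The 5 genes described here among those higher in the mutant, which were taken by smallest p, all had their highest level in cluster 7, the Hoxb8 cluster. Sostdc1 was at 9.56, 4.66 and 3.5 CPM in the control libraries and at 53.4, 34.4 and 32.1 CPM in their mutant littermates, a log2 change of 2.91 ± 0.43. Olfm3, an olfactomedin gene, was at 7.65, 4.66 and 5.61 CPM in control and at 46.9, 17.2 and 27.1 CPM in Atoh1S193A/- libraries, a log2 change of 2.41 ± 0.44. The genotypes did not overlap for either gene. Sostdc1, Olfm3, Col14a1 and Mgat4c met the detection limit in mutant members only. Their direction thus follows in part from the limit, and their values are a description. Gria1 met the limit in both genotypes. Col14a1 differed by 2.27 ± 0.47, the glutamate receptor gene Gria1 by 1.46 ± 0.31 and Mgat4c by 1.74 ± 0.39. All 5 were among the genes called with the block, and the edgeR adjusted p of Gria1 was 0.642 without it. Without the 32 cells of that cluster, 0 genes passed, and with the block 1 gene passed, namely Ttr, which was high in a single mutant library. Among all members, Ttr met the detection limit in the mutant only, so its direction follows in part from the limit. The cluster was left out after these genes had been seen to be high in it, and most of its cells were from mutants, so a loss of their calls follows from the choice itself. Without those cells Gria1 differed by 0.78 and Slit1 by -3.35 on the log2 scale, where the block was not used. Of the 36 genes called with the block, 18 had their highest level in the Hoxb8 cluster, and all 18 were higher in the mutant, while 1607 of all 9837 tested genes had their highest level there. Most cells of that cluster were from mutants, so this direction follows from the cell counts and is a description.

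The number of cells in the Hoxb8 cluster was itself unequal. It held 1, 0 and 2 cells of the 3 control libraries and 11, 2 and 16 cells of the 3 Atoh1S193A/- libraries. When the cells were clustered anew without the 526 genes that had an unadjusted p under 0.05 between genotypes with or without the block, the same 32 cells again formed a cluster of their own. They were 2.63%, 0% and 2.27% of the glia-like cells of the control libraries and 17.7%, 7.41% and 13.9% of those of the Atoh1S193A/- libraries. The 0 of 39 cells in control replicate 2 allows a share of up to 7.69%, which is above the share in Atoh1S193A/- replicate 2, its littermate. No test was made of these counts, since the cluster was picked after its genes were seen. The summed level of 12 Hox genes of paralog groups 6 to 9, also chosen after the fact, was 73.6, 15.7 and 41.4 CPM in control and 178, 46.8 and 113 CPM in Atoh1S193A/- members, and 0.926 to 7.05 CPM in the other kept cells of all 6 libraries. At E18.5 the members of both genotypes thus had more of these genes than the rest of the sort. Each mutant had more than its littermate at that stage. Cells of the same limits at E14.5 had 36.6, 126 and 75.7 CPM in control and 29.8, 0.316 and 190 CPM in Atoh1S193A/- libraries. The order of littermates was thus not the same at E14.5, and the other kept cells there had 23.5 to 372 CPM.

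Of the 5 genes lower in the mutant that were taken by smallest p, Slit1 had the largest difference. Slit1, an axon guidance ligand, was at 15.3, 14 and 28 CPM in control and at 5.21, 0 and 0 CPM in Atoh1S193A/- libraries (log2 change -3.53 ± 0.75). It met the detection limit in control members only, and 1.47% of mutant members had a UMI of it. Its direction thus follows in part from the limit, and its values are a description. Hopxos, an RNA transcribed opposite Hopx, differed by -2.15 ± 0.47, Scrg1 by -1.36 ± 0.32 and Spon1, a matrix protein of axon paths, by -0.79 ± 0.18. They passed with the block but not in the fit with the same detection limit and no block. Without the low-count filter and the block, 9 of the 10 genes taken by smallest p passed. Hopxos, too, met the limit in control members only. Ttyh2, a volume-regulated channel family member, differed by -1.54 ± 0.38 and passed neither test. Among genes picked after the blocked result was seen, Slc6a11 was at 392, 319 and 327 CPM in control and at 122, 272 and 247 CPM in Atoh1S193A/- libraries (-0.72 ± 0.24), and Olig1 at 212, 238 and 305 CPM against 46.9, 92.9 and 282 CPM, with overlap (-0.75 ± 0.43). WPRE, called with the block, was higher in each mutant than in its littermate, at 245, 112 and 82.7 CPM against 482, 182 and 153 CPM, with overlap (0.95 ± 0.43). WPRE was one of the 18 genes called with the block that had their highest level in the Hoxb8 cluster, and it did not pass without that cluster.

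The lists showed no called gene between genotypes without the block. With it, the list members called included the Bergmann glia genes Gdf10 and Gria1, the ependymal list gene Mia, En1, Hoxb8, Mfap4 and Ttr, all higher in the mutant, and Slc6a11 and Olig1, which were lower. Of these, En1 and Ttr met the detection limit in mutant members only. Their direction thus follows in part from the limit, and their calls are a description. Gdf10 was at 252, 154 and 203 CPM in control and at 444, 299 and 325 CPM in Atoh1S193A/- libraries, without overlap (0.81 ± 0.20 without the block). Mia was at 76.5, 67.6 and 42.1 CPM against 159, 107 and 70.7 CPM, with overlap (0.91 ± 0.31). Gdf10, Gria1, Hoxb8 and Mia were also highest in the Hoxb8 cluster, and of the genes named here only Ttr passed without its cells. The median log2 difference was -0.23 over 26 tested astrocyte genes, -0.34 over 16 uptake genes, -0.02 over 22 radial glia genes and 0.40 over the 8 Hox genes that met the detection limit in both genotypes, beside 0.00 over all such genes. Apoe was at 5297, 4308 and 4622 CPM in control and 3160, 3999 and 4915 CPM in mutant libraries (-0.24 ± 0.16). Slc4a4 differed by -0.29 ± 0.23, Aqp4 by -0.12 ± 0.21 and Sox2 by -0.02 ± 0.14, all with overlapping genotypes. Of the interaction between genotype and stage, 0 of 10740 genes passed with edgeR (0% called; 268 at an unadjusted p under 0.05), 0 with the block and 0 with DESeq2, and at E14.5 alone 0 of 10356 genes passed between genotypes (0% called; 335 at an unadjusted p under 0.05).

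**Figure D5:**
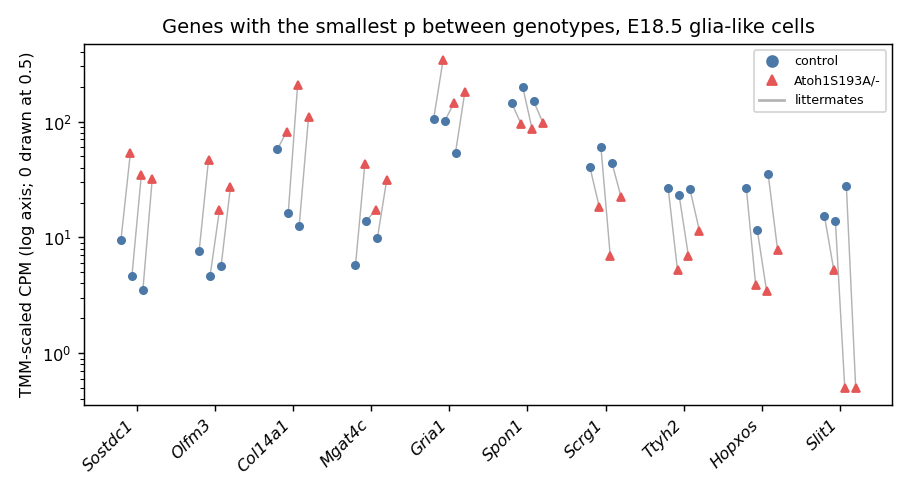
TMM-scaled CPM (log axis, 0 drawn at 0.5) of 10 genes taken by smallest p between genotypes, 5 in each direction, in the E18.5 glia-like cells of control (circles) and Atoh1S193A/- libraries (triangles), with littermates joined. Every mutant lies on the same side of its littermate for each gene. Sostdc1 is at 3.5 to 9.56 CPM in control and 32.1 to 53.4 CPM in mutant libraries. The genes were chosen by their p, which favours such a pattern. None passed in the edgeR fit of all E18.5 libraries with the 10% detection limit and no block, while 1 passed with DESeq2 and 9 without the low-count filter.

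Shares of cells with division, position and oligodendrocyte genes were compared after each cell was thinned to 5000 UMIs, which left 32, 32 and 80 control cells and 59, 22 and 104 mutant cells. Mki67 or Top2a, which mark dividing cells, had a UMI in 31.2%, 25% and 36.2% of control members and in 20.3%, 36.4% and 40.4% of mutant members, and in 6.94% to 13.6% of neurons (exact permutation p = 0.8). Any of the Hox genes of paralog groups 2 to 5 had a UMI in 43.8%, 34.4% and 26.2% of control and 44.1%, 27.3% and 38.5% of mutant members, where neurons had 11.2% to 30.0% (exact p = 0.7). En1 or En2, which mark the midbrain and rostral cerebellar territory, were found in 9.38%, 15.6% and 7.5% of control and 16.9%, 27.3% and 18.3% of mutant members. Neurons had 33.1% to 37.0%, so the shares in members cannot be told from free RNA. The genotypes did not overlap for that set, with a difference of 10.0 percentage points (exact p = 0.1, the smallest possible, and 0.4 after Benjamini-Hochberg adjustment over the 4 sets). Olig1, Olig2, Sox10 or Pdgfra were found in 40.6%, 34.4% and 40.0% of control and 16.9%, 22.7% and 41.3% of mutant members, and in 6.30% to 9.50% of neurons (exact p = 0.4). The adjusted p was 0.8 for each of the other 3 sets.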

How the data were processed

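The authors deposited raw UMI counts per gene and cell (10x Genomics 3′ libraries; per the methods, reads were aligned to mm10 with WPRE added, using Cell Ranger 5.0.1, while the file headers of E14.5 control replicates 1 and 2 name 3.1.0). Those counts were used as deposited, over 31054 features. Cells with at least 1000 genes and under 10% mitochondrial UMIs were kept, which left 122658 cells in 14 libraries; the study's own cell filters were not applied, and doublets were scored with Scrublet but kept. The members and the 26 gene lists were chosen with earlier results of these data known. UMIs were summed per library over the members and tested with edgeR 4.0.16 (quasi-likelihood, TMM; genes were tested if detected in 10% or more of the members in either group), called at an adjusted p under 0.05 and a log2 change over 0.25 (genotype) or 1 (stage, with genotype as a term). Each library was 1 embryo. DESeq2 1.42.0, a block for littermates, other limits and leaving out libraries were alternatives. Deviations from the genotype mean had correlations of 0.21, 0.15 and 0.50 between littermates over 3565 genes, while unmatched pairs ran from -0.40 to 0.16. The highest unmatched value was thus slightly above the lowest of littermates. Deviations within a genotype cancel out, so these correlations are not independent of one another. Members were clustered with scanpy 1.11.5 (Leiden, resolution 0.5). Genes were named as the markers, up to 6 of the most abundant and every called member of each list, the called genes with the largest changes whose libraries did not overlap, and, for the genotype test, the 5 with the smallest p in each direction. A few genes that met these rules are not reported here, and the next by p took their place. Positions are from GENCODE on GRCm38. The scripts were tested on simulated data.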

Additional observations from a re-analysis of the deposited data

How the results depend on the processing

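The stage difference in the share of glia-like cells was -1.52 percentage points in control libraries alone and -3.92 in Atoh1S193A/- libraries alone, each with an exact permutation p of 0.1, and it ran from -3.03 to -2.30 when each library was left out in turn. The genotype difference in the share ran from -0.182 to 0.323 percentage points, with the sign turned only without Atoh1S193A/- replicate 3. With cells not thinned, the genotype difference turned to -7.43 percentage points for Mki67 or Top2a and to -5.11 for the Hox genes of groups 2 to 5. When each library was left out, these differences ran from -2.48 to 7.54 and from -2.46 to 6.47, that of En1 or En2 from 6.78 to 12.4 and that of the oligodendrocyte genes from -18.5 to -6.30. The count of genes called between genotypes was 36 with the replicate block, 2 with DESeq2, 51 without a filter on low counts and 1 with the replicate block but without the Hoxb8 cluster, and it was 0 to 4 with each library left out, where the 4 came without Atoh1S193A/- replicate 3. Leaving out that cluster was chosen after seeing the data. The count of genes called between stages was 2095 without the filter, where more genes were tested, and was otherwise within 1.5 times of that reported. The replicate block was run for the E18.5 genotype shares, the E18.5 genotype genes and the interaction only, and apart from the genotype count it changed no call among these. The exact sign-flip p was 0.25 to 0.75 for the shares, where 0.25 is the smallest possible. No stage test was run with litters as a block, so littermates of a stage were treated there as independent. Of 148 named genes called between stages, 25, among them Gdf10, Id1, Notch3, Hey2, Hoxb4, Barhl1, Mfap4, Zic2, Col1a2 and Kdr, lost their call under at least 1 of the alternatives run. The others kept it under each alternative in which they were tested, and not every gene was tested in each. The 148 include genes that met the detection limit at 1 stage only, such as Barhl1, Col1a2, Kdr, Gfap and Wnt1. The direction of such genes follows in part from the limit, so a kept call adds no support for it. The causes were not tested. With 27 to 115 members per library, genes changed by 2-fold between genotypes could be missed.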
